A study of Mus musculus with 30 samples.

Results

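The 7 eosinophil granule and eosinophil-associated genes Prg2, Prg3, Epx, Ear1, Ear2, Ear6 and Alox15 were followed through bone marrow progenitors of mice. They were chosen by name and are 7 of the 11383 genes in the authors' FPKM table. FPKM is the count of reads or fragments of a gene, scaled to its exon length and to the reads assigned in the library. RNA of sorted bone marrow progenitors from wild-type (WT) mice was sequenced in 30 libraries, 3 biological replicates in each of 10 groups. The groups were GMP, GMP-MoP, proNeu1 and proNeu2 taken 2 days after lipopolysaccharide (LPS, a bacterial cell wall component), and naive proNeu1, proNeu2, GMP-MoP, cMoP, MDP and GMP. All groups carried the same genotype, the labels give neither the route nor the dose of LPS, and each population is a sorted gate that can hold several cell types. The labels do not expand these names, of which GMP commonly stands for granulocyte-monocyte progenitor, MDP for monocyte-dendritic cell progenitor, cMoP for common monocyte progenitor and proNeu for an early committed neutrophil progenitor.

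Eosinophils are granulocytes that arise in the bone marrow under GATA and C/EBP transcription factors and mature under interleukin-5. Their granules are packed with basic proteins, and the genes for these proteins are switched on early, in progenitors that already store granule protein. In mouse marrow the eosinophil progenitor lies close to, and in many sorting schemes inside, the GMP gate.

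In naive GMP these genes were expressed at high level, and Prg2 was the most abundant gene of the table in every naive GMP library. Relative to naive GMP all 7 genes were lower in every other naive population, with Alox15 in proNeu1 the 1 change short of a call, to different degrees. In proNeu1 the 6 genes that passed the test had changes between -5.52 and -3.32 on the log2(FPKM + 1) scale, whereas Prg2, the highest of them in GMP, had 62 reads in all 3 MDP libraries together and 6 in cMoP. After LPS, 6 of the 7 genes fell in GMP, where 3.04% of all genes were called lower, and 6 of 7 fell in proNeu1, where 0.439% were. In both populations every LPS library lay below every naive library for all 7 genes, as it did for 33.6% of all genes in GMP and 24.8% in proNeu1. None was called in proNeu2 or GMP-MoP after LPS, and several calls after LPS were lost when 1 library was left out, as given beside them.

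The files' depth was recovered from the FPKM values, which came out as whole reads for 11383 of 11383 genes. The libraries held 23.6 to 41.3 M assigned reads, with a median of 28.6 M. Neutrophil granule genes summed to 52458 to 60029 FPKM in naive proNeu1 and to 5354 to 8684 FPKM in naive GMP. Monocyte genes summed to 3751 to 3820 FPKM in naive cMoP and to 158 to 241 FPKM in naive GMP. These sums did not separate every label: monocyte genes summed to 1567.5 to 1808 FPKM in naive proNeu1 and to 950 to 1020 FPKM in naive MDP. Of eosinophil markers outside the 7 genes, Il5ra, the interleukin-5 receptor chain, was at 10.1 ± 0.572 FPKM and Siglecf, an eosinophil surface lectin, at 34.2 ± 0.635 FPKM in naive GMP (SD, n = 3). In these bulk samples, fewer cells of a type and less RNA per cell cannot be told apart. The replicates are labelled as biological, with no word on separate animals or pools, so the p-values below measure only a spread between samples. Unless stated otherwise, that spread is 1 estimate per gene over all 10 groups and not that of the 2 groups compared. The SE of Prg2 was thus 0.53 in every 2-group comparison. For LPS against naive GMP-MoP it was 0.30 without naive GMP-MoP replicate 3.

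The 2 major basic proteins come first. Prg2 (ENSMUSG00000027073.5) encodes eosinophil major basic protein, the toxic protein of the granule core, and lies at chr2:84980461-84983632 on the plus strand of GRCm38 in 6 exons. Prg3 (ENSMUSG00000027072.13), which encodes the related major basic protein 2, follows it at chr2:84988215-84993886 on the same strand, also in 6 exons. Prg2 stood at 162, 186 and 518 FPKM in naive proNeu1, against 8777, 10924 and 10737 FPKM in naive GMP. No library of proNeu1 came near the GMP libraries, and replicate 3 of naive proNeu1 was 2.98 times the mean of the other two. The log2 fold change was -5.33 ± 0.53 (SE, adjusted p = 4.82e-09), and it was -5.85 without that library.

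Prg2 was at 145, 133 and 140 FPKM in naive proNeu2. In naive GMP-MoP it was at 13.7, 18.4 and 0.593 FPKM, the third library holding 14 reads of the gene. Naive MDP had 0.912, 0.664 and 1.33 FPKM, and naive cMoP had 0.233, 0 and 0 FPKM. The naive populations thus spanned the range from the top gene of the table to a total of 6 reads over the 3 cMoP libraries. In the cMoP libraries listed at 0, a floor of 3 reads would be 0.136 and 0.0913 FPKM, which covers counting error only.

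Prg3 kept close to Prg2 in proportion. It was at 6.92, 7.25 and 23.7 FPKM in naive proNeu1, against 378, 530 and 466 FPKM in naive GMP, again with replicate 3 of proNeu1 above the other libraries of its group. Its log2 fold change was -5.28 ± 0.28 (adjusted p = 3.51e-14). The FPKM ratio of Prg2 to Prg3 averaged 23.6 ± 1.91 in naive proNeu1, 20.3 ± 1.33 in naive proNeu2 and 22.3 ± 1.46 in naive GMP (SD, n = 3). The range in naive GMP, 20.6 to 23.2, overlapped that in naive proNeu1, 21.9 to 25.7, and that in naive proNeu2, 18.9 to 21.5, while the proNeu1 and proNeu2 ranges did not overlap. Prg3 differed from Prg2 in the cells with least of both: it held 82 reads in naive cMoP, where Prg2 held 6, and 6 reads in naive MDP, where Prg2 held 62.

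**Figure D1:**
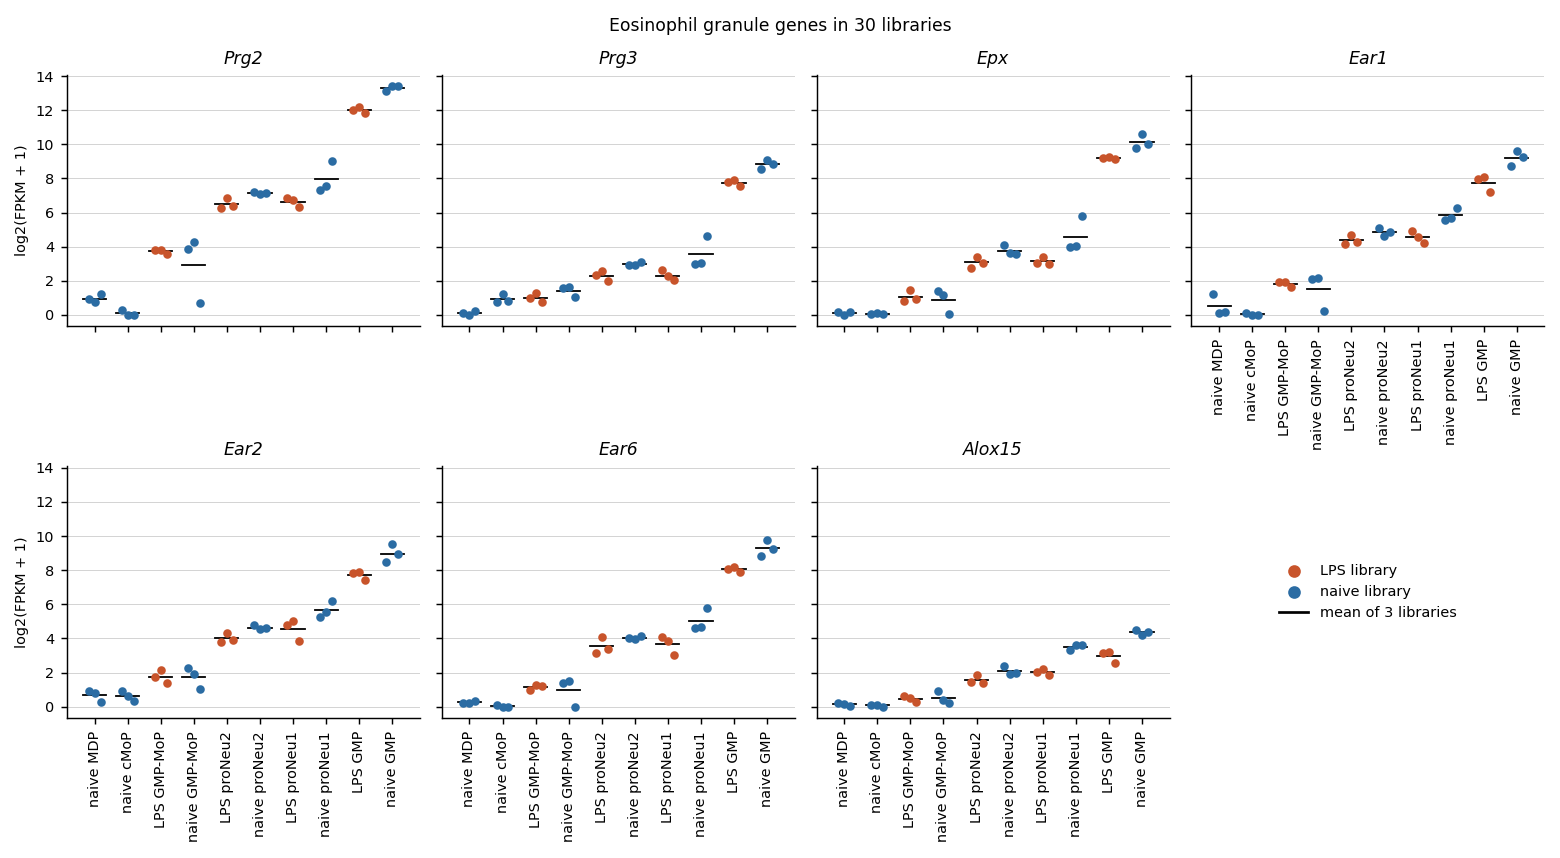
Level of each of the 7 genes on the log2(FPKM + 1) scale (vertical axis) in the 10 groups (horizontal axis). Points are libraries, orange after LPS and blue naive, and lines are means of 3 libraries. Naive GMP is highest for every gene. In Prg2, Epx, Ear1 and Ear6, naive GMP-MoP replicate 3 lies far below the other libraries of its group.

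Epx (ENSMUSG00000052234.2, chr11:87864000-87875536, minus strand, 14 exons) encodes eosinophil peroxidase, the granule enzyme that makes hypobromous acid. It was at 14.5, 15.7 and 53.7 FPKM in naive proNeu1, against 866, 1553 and 1017 FPKM in naive GMP. The groups were far apart, and the log2 fold change of -5.52 ± 0.35 (adjusted p = 9.36e-13) was the largest of the 7 genes in this comparison. Naive proNeu2 held 15.9, 11.5 and 10.7 FPKM of Epx, overlapping naive proNeu1. Naive GMP-MoP held 1.69, 1.27 and 0.0264 FPKM, and the 3 libraries of naive cMoP together held 9 reads.

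The Ear genes encode eosinophil-associated ribonucleases, the mouse relatives of human eosinophil cationic protein and eosinophil-derived neurotoxin. All 3 lie on chromosome 14: Ear1 (ENSMUSG00000072601.4) at chr14:43818765-43875517 on the minus strand, Ear2 (ENSMUSG00000072596.4) at chr14:44102654-44103534 on the plus strand and Ear6 (ENSMUSG00000062148.6) at chr14:51853699-51854643 on the plus strand. Their near-identity limits what their separate values mean. Of all 31-base words in its GENCODE M21 transcripts, 73.6% in Ear1, 60.5% in Ear2 and 8.48% in Ear6 also occur in another gene, mostly another Ear gene or pseudogene, while Prg2, Prg3, Epx and Alox15 share none. The annotated Ear1 locus also overlaps 4 other genes or pseudogenes, and that of Ear2 overlaps 1. Reads could therefore be split or lost between Ear1 and Ear2, whose values are uncertain as separate measurements. Their likeness extends to the 250 bases before each RefSeq transcript start (RefSeq, GRCm38.p6, each printed 5′ to 3′ on its gene's strand). The GENCODE starts of Ear1 and Ear6 given above differ from these. By them the Ear1 window lies inside the Ear1 locus and the Ear6 window overlaps the Ear6 exon. Capitals mark TTGCNNAA, a C/EBP-type motif.
Ear1 chr14:43819640-43819889, minus strand: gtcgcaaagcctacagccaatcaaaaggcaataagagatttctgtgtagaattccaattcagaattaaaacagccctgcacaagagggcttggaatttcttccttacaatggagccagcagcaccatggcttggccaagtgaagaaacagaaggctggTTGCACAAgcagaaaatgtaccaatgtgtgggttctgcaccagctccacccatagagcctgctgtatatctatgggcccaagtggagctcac
Ear2 chr14:44102404-44102653, plus strand: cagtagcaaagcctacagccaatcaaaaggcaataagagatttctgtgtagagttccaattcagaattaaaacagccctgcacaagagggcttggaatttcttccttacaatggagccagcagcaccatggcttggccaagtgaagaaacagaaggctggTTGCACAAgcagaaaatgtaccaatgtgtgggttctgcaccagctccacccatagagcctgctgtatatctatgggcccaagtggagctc
Ear6 chr14:51853518-51853767, plus strand: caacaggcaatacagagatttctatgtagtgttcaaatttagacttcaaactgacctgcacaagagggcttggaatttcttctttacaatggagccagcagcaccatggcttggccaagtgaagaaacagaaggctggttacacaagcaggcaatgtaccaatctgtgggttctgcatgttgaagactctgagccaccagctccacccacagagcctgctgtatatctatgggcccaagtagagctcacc
The Ear1 and Ear2 windows were identical at 97.6% of aligned positions, Ear1 and Ear6 at 78.2%, and Ear2 and Ear6 at 77.7%. The motif stood 92 bases before the start in Ear1 and 90 bases before it in Ear2, and these letters were not in the Ear6 window. It was found, on either strand, in 9.56% of the 32851 promoter windows of this length.

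Ear1 was at 47.0, 51.2 and 77.2 FPKM in naive proNeu1, against 426, 769 and 619 FPKM in naive GMP. Ear2 was at 36.6, 44.98 and 70.8 FPKM in naive proNeu1, against 352, 727 and 482 FPKM in naive GMP. Ear6 was at 23.7, 24.7 and 54.1 FPKM in naive proNeu1, against 453, 877 and 597 FPKM in naive GMP. No library of one population reached the other in any of the 3 genes, and proNeu1 replicate 3 was highest of its group in all of them. The log2 fold changes were -3.34 ± 0.37 for Ear1 (adjusted p = 2.44e-08), -3.32 ± 0.32 for Ear2 (adjusted p = 2.02e-09) and -4.24 ± 0.33 for Ear6 (adjusted p = 5.85e-11). In naive GMP-MoP the 3 genes ranged from 0 to 3.73 FPKM, and in naive MDP and cMoP from 0 to 1.32 FPKM. The 3 cMoP libraries together held 2 reads of Ear1, 2 of Ear6 and 38 of Ear2.

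Alox15 (ENSMUSG00000018924.6, chr11:70344152-70352031, minus strand, 14 exons) encodes 12/15-lipoxygenase, an enzyme of lipid mediator synthesis that eosinophils share with some macrophages. It stood apart from the granule protein genes in level and in pattern. It was at 8.87, 11.2 and 10.999 FPKM in naive proNeu1, against 21.6, 17.1 and 19.96 FPKM in naive GMP. These libraries did not overlap, yet the difference of -0.86 ± 0.18 log2 units (adjusted p = 1.76e-04) was short of the 2-fold size asked of a call. Replicate 3 of naive proNeu1, high for the other 6 genes, was at 1.10 times the mean of the other two for Alox15. Its order of group means also differed: naive proNeu1 came second after naive GMP and above LPS GMP, whereas the other 6 genes had LPS GMP in second place.

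No library of naive proNeu1 reached naive GMP in any of the 7 genes, where 40.9% of all genes had proNeu1 libraries below every GMP library. Counted by calls, proNeu1 had 6 of the 7 genes called lower than GMP, at an adjusted p under 0.05 and a change of at least 2-fold, where 8.35% of all genes tested were called lower. The other 4 naive populations had 7 of 7 lower than GMP, where 13.2% of all genes were called lower in proNeu2, 6.53% in GMP-MoP, 7.33% in cMoP and 5.42% in MDP. These 5 comparisons share the 3 naive GMP libraries. The median log2 fold change of the 7 genes was -4.24 in proNeu1, -5.23 in proNeu2, -7.69 in GMP-MoP, -9.16 in cMoP and -8.72 in MDP, where the medians over all genes were -0.14, -0.22, -0.04, -0.06 and 0.02 in the same order. A gene entered the table with a mean over libraries of at least 1.00 FPKM, so a gene this low in most groups could be listed only if it was high in another, and the counts describe the 7 genes without standing as support for their choice. The pseudocount of 1 compresses changes near 0 and the fold changes of cMoP and MDP understate the change.

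**Figure D2:**
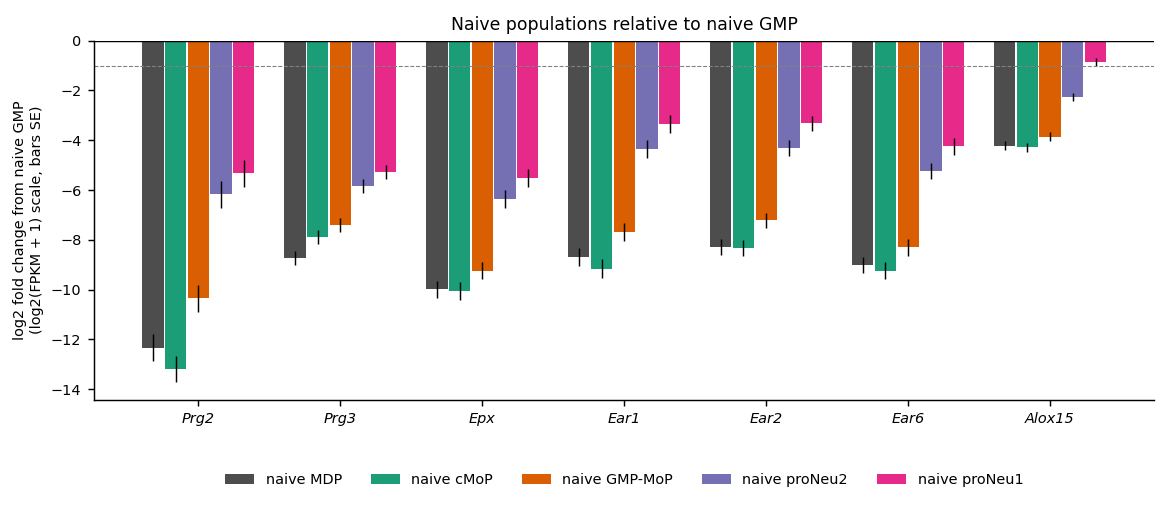
Log2 fold change of each gene in the naive populations MDP, cMoP, GMP-MoP, proNeu2 and proNeu1 relative to naive GMP (vertical axis, log2(FPKM + 1) scale), with SE as error bars from limma. The dashed line marks the size asked of a call, and only Alox15 in proNeu1, at -0.86, lies inside it.

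Within the neutrophil branch, 3 of the 7 genes were called lower in naive proNeu2 than in naive proNeu1, where 1.25% of all genes were called lower. Alox15 was at 4.19, 2.83 and 2.92 FPKM in proNeu2, against 8.87, 11.2 and 10.999 FPKM in proNeu1, with no overlap (log2 fold change -1.40 ± 0.18, adjusted p = 1.97e-06). Ear1 was at -1.005 (adjusted p = 0.0394) and Ear2 at -1.002 (adjusted p = 0.0177), just past the size asked, and Ear6 at -0.99 was just short of it (adjusted p = 0.0254). Prg2 was at -0.84 ± 0.53 (adjusted p = 0.247), Prg3 at -0.58 and Epx at -0.84, and none of them was called. The libraries of Prg3 and Epx overlapped and those of the other 5 genes did not, where 27.7% of all genes had proNeu2 libraries below every proNeu1 library. The count called was 5 without proNeu1 replicate 1, and it was 1 without proNeu1 replicate 3 and 1 without proNeu2 replicate 2. Between naive GMP-MoP and naive proNeu1, all 7 genes were lower in GMP-MoP, where 3.37% of all genes were called lower, with log2 fold changes between -2.14 for Prg3 and -5.03 for Prg2.

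The make-up of the group of transcripts differed between populations as well as its total. The 7 genes together made up 0.112 ± 0.0639% of all FPKM in naive proNeu1, 0.0541 ± 0.00585% in naive proNeu2 and 3.30 ± 0.462% in naive GMP (SD, n = 3). Within that sum Prg2 took 57.6 ± 5.65% in naive proNeu1, 60.7 ± 1.80% in naive proNeu2 and 75.3 ± 3.77% in naive GMP. The level of Prg2 was 3.44 to 6.71 times that of Ear1 in the naive proNeu1 libraries, against 14.2 to 20.6 times in naive GMP, and these ranges did not overlap. The same held for Alox15, where Prg2 was 16.6 to 47.1 times as high in naive proNeu1, against 406 to 637 times in naive GMP. For Ear2 the ratio was 4.14 to 7.32 in naive proNeu1 and 15.03 to 24.96 in naive GMP. For Ear6 it was 6.81 to 9.57 in naive proNeu1 and 12.5 to 19.4 in naive GMP. For Epx the ranges overlapped, with ratios of 9.65 to 11.9 in naive proNeu1 and 7.04 to 10.6 in naive GMP. Prg2, Prg3 and Epx thus kept roughly the same proportions in proNeu1 as in GMP, while Ear1, Ear2, Ear6 and Alox15 took a larger share there. These ratios are a description, with no test.

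**Figure D3:**
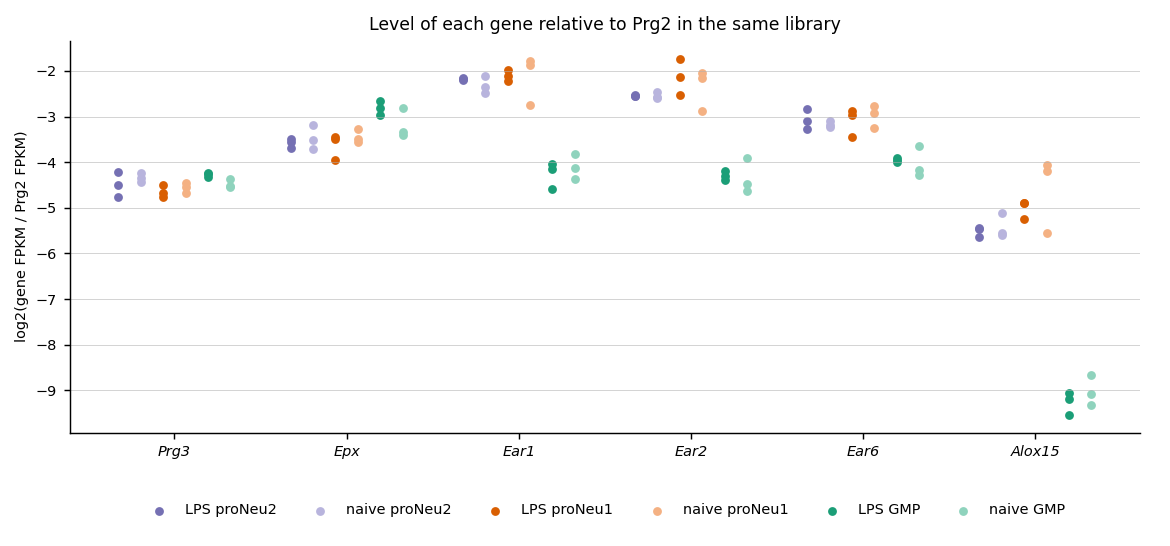
Level of each gene relative to Prg2 in the same library, as log2(gene FPKM / Prg2 FPKM) (vertical axis), for proNeu2, proNeu1 and GMP after LPS (dark) and naive (light); each point is a library. Ear1, Ear2, Ear6 and Alox15 lie higher in all proNeu libraries than in all GMP libraries, and Prg3 does not.

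Replicate 3 of naive proNeu1 lay between the other proNeu1 libraries and GMP in these proportions: Prg2 took 64.1% of the sum there, the highest of its group. Basophil and mast cell markers, of which 9 of 14 were measured, summed to 226 FPKM in that library and to 167 and 174 FPKM in the other naive proNeu1 libraries, with all 9 above 0 in at least 1 library of the group. Their sum was 4231 to 7363 FPKM in naive GMP. In naive proNeu1 7 of the 9 were called lower than in naive GMP, where 8.35% of all genes were. Among them were the mast cell carboxypeptidase gene Cpa3 at -6.60 and the basophil protease gene Mcpt8 at -6.34. Prss34, also a basophil protease gene, was at 9.30, 9.89 and 31.6 FPKM in naive proNeu1, against 1986 to 3705 FPKM in naive GMP. Its 31.6 FPKM was in replicate 3, the library that was also highest in Prg2. The ratio of Prg2 to Prss34 was 17.4, 18.8 and 16.4 in naive proNeu1 replicates 1, 2 and 3, a narrow span within that group. In naive GMP the ratio was 2.37 to 5.50, and the ranges of the 2 populations did not overlap. The part of basophil or mast cells in these results was not tested.

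After LPS most of the genes were lower in GMP. Prg2 was at 4174, 4709 and 3580 FPKM in LPS GMP, against 8777, 10924 and 10737 FPKM in naive GMP. The groups did not overlap, and Prg2 still ranked between 2 and 5 among all genes in the LPS GMP libraries. The log2 fold change was -1.29 ± 0.53, called at an adjusted p of 0.0486 in the limma fit of all groups. This call was lost on leaving out any 1 of the 6 GMP libraries (adjusted p between 0.0712 and 0.122, change between -1.39 and -1.19), with median-of-ratios scaling (0.0546) and with a pseudocount of 0.1 (0.144). It held in a fit of the compared groups only and with voom on the recovered reads. Prg3 was at 218, 234 and 190 FPKM in LPS GMP, against 378, 530 and 466 FPKM in naive GMP (-1.08 ± 0.28, adjusted p = 0.00268). Epx was at 590, 599 and 567 FPKM in LPS GMP, against 866, 1553 and 1017 FPKM in naive GMP. Its groups did not overlap either, but at -0.92 ± 0.35 (adjusted p = 0.0319) it was short of the size asked.

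The ribonuclease genes and the lipoxygenase gene were called as well. Ear1 was at 253, 266 and 149 FPKM in LPS GMP, against 426, 769 and 619 FPKM in naive GMP (-1.44 ± 0.37, adjusted p = 0.00231). Ear2 fell by 1.24 ± 0.32 (adjusted p = 0.00233) and Ear6 fell by 1.21 ± 0.33 on the log2 scale (adjusted p = 0.00427). Alox15 was at 7.81, 8.05 and 4.83 FPKM in LPS GMP, against 21.6, 17.1 and 19.96 FPKM in naive GMP, and had the smallest adjusted p of the 7 genes (-1.40 ± 0.18, adjusted p = 6.9e-07). In all, 6 of 7 genes were called lower, where 3.04% of all genes were called lower, with a median of -1.24 over the 7 genes and -0.06 over all genes. All 7 genes had LPS libraries below every naive library, where 33.6% of all genes did. The count was 2 without naive GMP replicate 2, the library with the highest values of Prg3, Epx and the Ear genes.

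As shares of the naive mean, the 7 genes were at 35.2% for Alox15 to 51.1% for Epx in LPS GMP, a narrow span next to their range of levels. The sum of the 7 genes was 1.30 ± 0.157% of all FPKM in LPS GMP and 3.30 ± 0.462% in naive GMP. Within it Prg2 took 73.3 ± 0.732% in LPS GMP and 75.3 ± 3.77% in naive GMP. The ratio of Prg2 to Ear1 was 16.5 to 24.1 in LPS GMP and 14.2 to 20.6 in naive GMP, and these overlapped.

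Other markers moved with this result in GMP. The share of all genes called lower in GMP after LPS was 3.04%. Of the 9 measured basophil and mast cell markers, 2 were called lower, Gzmb at -2.41 and Prss34 at -1.37. The 9 markers summed to 2684 to 3114 FPKM in LPS GMP and to 4231 to 7363 FPKM in naive GMP. Of 9 measured megakaryocyte and erythroid markers 7 were lower, with sums of 83.4 to 226 FPKM in LPS GMP and 492 to 585 FPKM in naive GMP. Of 4 lymphoid markers 3 were lower, and of 5 macrophage markers all 5 were lower, while 3 of 11 neutrophil granule genes were higher and none lower, where 0.914% of all genes were called higher. Neutrophil granule genes summed to 12548 to 15099 FPKM in LPS GMP and to 5354 to 8684 FPKM in naive GMP. Monocyte markers were divided, with 2 of 7 higher, among them F13a1 at 2.47, and 3 lower, among them Irf8 at -1.90. The part of these other cell types in the lower eosinophil genes was not tested.

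In proNeu1 the levels after LPS were lower again. Prg2 was at 115, 105 and 77.9 FPKM in LPS proNeu1, against 162, 186 and 518 FPKM in naive proNeu1; the groups did not overlap, but the change of -1.34 ± 0.53 (adjusted p = 0.0625) was not called by limma. It was called by voom on the recovered reads (-1.32 ± 0.29, adjusted p = 0.00116), with which 7 of 7 genes were lower, and by limma without naive proNeu1 replicate 1 (-1.65, adjusted p = 0.0469). Epx was at 7.40, 9.69 and 6.89 FPKM in LPS proNeu1, against 14.5, 15.7 and 53.7 FPKM in naive proNeu1 (-1.44 ± 0.35, adjusted p = 0.00345). Alox15 was at 3.04, 3.56 and 2.61 FPKM in LPS proNeu1, against 8.87, 11.2 and 10.999 FPKM in naive proNeu1 (-1.48 ± 0.18, adjusted p = 1.57e-06). Alox15 alone of these had evenly matched naive libraries. Prg3 fell by 1.24, Ear1 by 1.28, Ear2 by 1.09 and Ear6 by 1.38 on the log2 scale, with adjusted p between 0.00200 and 0.0122. This gave 6 of 7 genes lower, where 0.439% of all genes were called lower, with a median of -1.34 over the 7 genes and -0.05 over all genes. All 7 genes again had no overlap, where 24.8% of all genes had LPS libraries below every naive library.

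The size and the calls of this change depended on the libraries in the fit. Without naive proNeu1 replicate 3, 2 of the 7 genes were called, the change of Prg2 was -0.81, that of Prg3 -0.71 and that of Epx -0.85, while Alox15 stayed between -1.40 and -1.58 whichever library was left out. Without LPS proNeu1 replicate 3 the count was 4, with Ear1 at -1.12 (adjusted p = 0.0534) and Ear2 at -0.74 (adjusted p = 0.104) not called. Of the 9 basophil and mast cell markers none was called in proNeu1 after LPS, where 0.439% of all genes were called lower. Their sums were 91.7 to 129 FPKM in LPS proNeu1 and 167 to 226 FPKM in naive proNeu1.

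**Figure D4:**
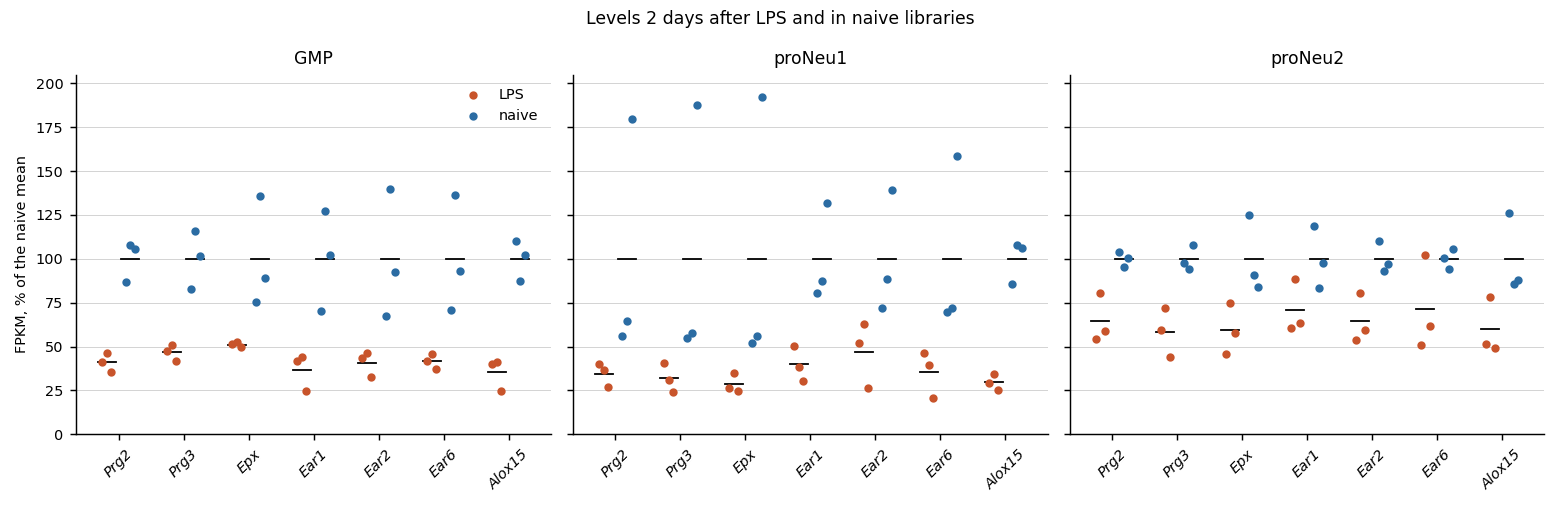
FPKM of each gene in GMP, proNeu1 and proNeu2 as a percentage of the naive mean of that population (vertical axis, starting at 0). Points are libraries, orange 2 days after LPS and blue naive, and lines are means of 3. In GMP and proNeu1 every LPS library lies below every naive library, and in proNeu1 naive replicate 3 lies high for every gene but Alox15.

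In proNeu2 no gene was called after LPS by limma, where 0.457% of all genes were called lower and 0.536% higher, nor by voom on the recovered reads, and 2 of 7 had an unadjusted p under 0.05. Prg2 was at 75.9, 112 and 82.0 FPKM in LPS proNeu2, against 145, 133 and 140 FPKM in naive proNeu2. These libraries did not overlap, and the change was -0.64 ± 0.53 (adjusted p = 0.366). Alox15, at 1.71, 2.60 and 1.64 FPKM in LPS proNeu2, against 4.19, 2.83 and 2.92 FPKM in naive proNeu2, had a small p but a change of only -0.53 ± 0.18 (adjusted p = 0.0195). The 7 genes were at 58.5% to 71.6% of their naive means, Ear1 and Ear6 had overlapping libraries, and the other 5 genes did not overlap, where 30.8% of all genes had LPS libraries below every naive library.

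In GMP-MoP none of the 7 genes was called after LPS by limma, where 0.72% of all genes were called higher and 0.413% lower. All 7 genes had overlapping libraries, where 18.4% of all genes had LPS libraries above every naive library and 25.3% below. None was called by voom on the recovered reads, and none had an unadjusted p under 0.05. Prg2 was at 12.8, 13.04 and 10.96 FPKM in LPS GMP-MoP, against 13.7, 18.4 and 0.593 FPKM in naive GMP-MoP. The single naive library near 0 set the direction, since the change was 0.78 ± 0.53 (adjusted p = 0.280) with it and -0.35 without it. Without naive GMP-MoP replicate 2, Prg2 alone was called, at 1.45 (adjusted p = 0.0444). That library, replicate 3, also had the lowest value of its group for each of the other 6 genes, with 0 reads of Ear6, where a floor of 3 reads would be 0.113 FPKM. Its sum of basophil and mast cell markers, 97.5 FPKM, lay inside the 96.3 to 110 FPKM of its group. Of these markers, Fcer1a, Gzmb and Cd200r3 were at 0 in all 3 naive GMP-MoP libraries. Prss34 was at 1.07, 0.854 and 0.291 FPKM in replicates 1, 2 and 3, lowest in replicate 3 like the 7 genes. The sum of megakaryocyte and erythroid markers in replicate 3, 24.9 FPKM, was the lowest of 3, next to 44.7 and 77.2 FPKM.

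The LPS effects of the populations were compared with that of GMP by interaction terms, which share the 6 GMP libraries. None of the 7 genes was called for a different effect in proNeu1, where 0.51% of all genes were called lower and 2.86% higher; none had an unadjusted p under 0.05 in limma, and voom called none. The differences ranged from -0.52 ± 0.49 for Epx to 0.16 ± 0.52 for Ear1, which does not show that the effects were equal. In proNeu2 none was called either, where 3.43% of all genes were called higher and 1.27% lower, by limma or by voom, with 1 gene at an unadjusted p under 0.05. That gene was Alox15, whose effect was 0.87 ± 0.25 smaller in proNeu2 (adjusted p = 0.00872), under the size asked, and which was called at 1.01 without naive proNeu2 replicate 1.

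In GMP-MoP 5 of the 7 genes were called higher in this contrast, that is, less lowered by LPS than in GMP, where 3.28% of all genes were called higher and 0.641% lower. The differences were 2.07 ± 0.75 for Prg2 (adjusted p = 0.0463), 1.77 ± 0.52 for Ear1 (adjusted p = 0.0143), 1.26 ± 0.45 for Ear2 (adjusted p = 0.0414), 1.40 ± 0.47 for Ear6 (adjusted p = 0.0312) and 1.37 ± 0.25 for Alox15 (adjusted p = 2.26e-04). Prg3 was at 0.67 ± 0.40 (adjusted p = 0.237) and Epx at 1.10 ± 0.49 (adjusted p = 0.107). The count was 1 by voom and 1 without LPS GMP replicate 3. It was 2 without naive GMP replicate 2, naive GMP-MoP replicate 3 or LPS GMP-MoP replicate 2, and 3 without naive GMP replicate 3, LPS GMP-MoP replicate 1 or LPS GMP-MoP replicate 3. Near 0 the pseudocount limits how far a gene can fall on this scale, which bears on GMP-MoP. There Alox15 was under 1 FPKM in all 6 libraries, and naive GMP-MoP averaged 1.17 FPKM of Ear6 and 2.54 FPKM of Ear2. For genes this low a positive difference can arise from this limit, so the contrast cannot show a weaker LPS effect.

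Genes that are known to direct or receive eosinophil signals were set beside the granule genes. Of 16 regulators and receptors, 14 were measured. In naive proNeu1 7 were lower than in naive GMP and 2 higher, where 8.35% of all genes were called lower and 4.09% higher. Gata2 fell by 5.27, Gata1, the factor needed for eosinophil development, by 3.78, its cofactor Zfpm1 by 3.77 and the interleukin-33 receptor gene Il1rl1 by 3.55 on the log2 scale. Higher were Csf2ra, a chain of the GM-CSF receptor, at 1.52, and Cebpe, a C/EBP factor of both neutrophil and eosinophil granule genes, at 1.06. Gata1 averaged 1.49 ± 0.0330 FPKM in naive proNeu1 and 33.2 ± 1.02 FPKM in naive GMP, while Cebpe averaged 224 ± 18.9 FPKM in naive proNeu1 and 108 ± 17.9 FPKM in naive GMP (SD, n = 3). At this low level the proNeu1 libraries were even in Gata1, with none of the excess of replicate 3 in Prg2. Prss34 did have this excess, at 31.6 FPKM in replicate 3 against 9.30 and 9.89 FPKM. Gata1 and Il5ra were at 0 in all 3 naive cMoP libraries.

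After LPS, 3 of the 14 were lower in GMP and none higher, where 3.04% of all genes were called lower and 0.914% higher. The 3 were Zfpm1 at -2.48, Gata1 at -1.46 and Gata2 at -1.08. Gata1 averaged 11.5 ± 0.535 FPKM in LPS GMP and 33.2 ± 1.02 FPKM in naive GMP, and Cebpe, which was not called, averaged 100.1 ± 9.11 FPKM in LPS GMP and 108 ± 17.9 FPKM in naive GMP. In proNeu1 after LPS, Gata2 at -1.05 and Zfpm1 at -1.02 were the 2 called lower, where 0.439% of all genes were. In proNeu2 and GMP-MoP after LPS 0 of the 14 were called. Of all genes, 0.457% were called lower and 0.536% higher in proNeu2, and 0.413% lower and 0.72% higher in GMP-MoP. Of 14 further eosinophil genes 4 were measured. Among them Alox5, the 5-lipoxygenase gene, was lower in naive proNeu1 than in naive GMP at -1.28 and lower in naive GMP-MoP at -5.13, and Padi4, a protein-arginine deiminase gene, was higher in naive proNeu1 at 1.34.

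The window before Prg3 is shown because it held the GATA-type motif GATAA, which none of the windows of Epx, Ear1, Ear2 and Ear6 did. Of the 7 genes, 5 had a window in the RefSeq table, and Prg2 and Alox15 did not. Capitals mark the motif, which lies on the opposite strand and therefore reads TTATC here, 123 and 111 bases before the start.
Prg3 chr2:84987965-84988214, plus strand (RefSeq, GRCm38.p6): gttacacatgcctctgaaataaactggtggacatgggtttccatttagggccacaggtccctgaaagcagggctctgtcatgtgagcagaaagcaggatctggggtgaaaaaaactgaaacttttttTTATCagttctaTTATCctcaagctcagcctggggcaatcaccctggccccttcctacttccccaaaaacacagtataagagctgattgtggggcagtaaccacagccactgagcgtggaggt
GATAA was present on either strand in 22.6% of all windows of this length, and GAGGAA, a PU.1-type motif, in 23.3%, but in none of these 5. The Epx window held none of the 3 motifs. A match is a description of letters, and a window without one says nothing of the factor.

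Ordered by group means, the lower groups were harder to separate than the GMP groups. For Prg2, naive proNeu2 at 139 ± 6.17 FPKM lay above LPS proNeu1 at 99.6 ± 19.4 FPKM without overlap, while LPS proNeu1 overlapped LPS proNeu2 at 90.1 ± 19.5 FPKM. Ear1, Ear2 and Ear6 had overlapping libraries between naive proNeu2 and LPS proNeu1, and between LPS proNeu1 and LPS proNeu2. For all 7 genes the LPS and naive GMP-MoP libraries overlapped, and every one of the proNeu groups had a higher mean than these.

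For 5 of the 7 members, the gene with the most similar pattern over the 10 group means is given here. Prss34, the basophil protease gene, was nearest to Prg3 (Pearson r = 0.993), Epx (r = 0.987) and Ear6 (r = 0.965), with Ms4a2, a chain of the IgE receptor, and Grb10, an adaptor gene, among their nearest. Lgals8, a galectin gene, was nearest to Ear2 (r = 0.957) and Alox15 (r = 0.947). Among the members, Prg2 and Ear1 were at r = 0.995, Prg3 and Epx at r = 0.990, and Prg3 and Alox15 at r = 0.876. These are descriptions over 10 group means of log2(FPKM + 1), in which the large gap between GMP and the rest carries most of the weight.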

How the data were processed

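Sorted bone marrow progenitors were profiled by RNA-seq in 30 libraries. Per the labels' protocols, RNA was extracted with RNeasy Micro and libraries were made with a NEBNext Ultra II Directional kit. The submitters' processing notes name Trimmomatic 0.38.0, STAR 2.7.8, featureCounts 2.0.1 and the mouse build GRCm38 (mm10); the strand setting, annotation release and treatment of reads with several matches are not given in the sources used here. The deposited file holds FPKM values made by the authors, 1 column for each library, with no gene under a mean of 1.00 FPKM.

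From it, log2(FPKM + 1) was tested with limma 3.58.1 (R 4.3.3), with an intensity trend, in 1 fit of all 30 libraries with 1 mean per group. All 11383 genes passed the filter of at least 1 FPKM in at least 3 libraries, and p-values were adjusted over them by Benjamini-Hochberg. Calls required both a change of 1 or more log2 units, up or down, and an adjusted p-value under 0.05. Values in the text are deposited FPKM, with SD over 3 libraries; fold changes are on the log2(FPKM + 1) scale, which understates changes of low genes.

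Whole reads were recovered for 11383 of 11383 genes, since FPKM times exon length and total came out whole within 0.02 reads or a relative 1e-07, at most 0.1 reads; 0 of 200 genes with shuffled values did. These reads served limma voom as an alternative. Whether each is 1 mate or a whole pair was not established, so low counts of reads may stand for fewer molecules. In simulated data each gene had its mean over all 30 libraries in every group, with 1 fixed spread for all genes. Changes were set in naive proNeu1, which was tested against naive GMP over 11383 genes. The test recovered 93 of 100 genes given a 4-fold change and 30 of 100 given a 2-fold change. It called 1 of 11183 left alone. Real libraries can spread more than this, so these counts need not hold for the data.

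Genes, lists and comparisons were chosen with earlier results of these data known. All 7 members are named. Of each other list up to 4 called genes per comparison were eligible by size, and the genes most like a member are the 5 with the highest Pearson correlation of group means among genes with a group mean of at least 10 FPKM, leaving out predicted genes and immunoglobulin segments. The genes most like Prg2 and Ear1 are not reported here. Genes of the lists that are missing from the table were not analysed here. Further alternatives were a pseudocount of 0.1, median-of-ratios scaling, no filter, a mean of at least 5 FPKM, only the compared groups, a replicate block, and each library left out. Exon models and shared words came from GENCODE M21 and promoter windows from RefSeq.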

Additional observations from a re-analysis of the deposited data

Results flagged for a closer look

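By the interaction term, 5 genes were called for a different change after LPS in GMP-MoP than in GMP. The LPS effect in GMP-MoP minus that in GMP was 2.07 log2 units for Prg2, 1.77 for Ear1, 1.26 for Ear2, 1.40 for Ear6 and 1.37 for Alox15. In GMP every LPS library lay below every naive library for these genes, whereas in GMP-MoP the libraries overlapped. Naive GMP-MoP replicate 3, with 14 reads of Prg2, lies far below the other libraries of its group, and 2 of the 5 differences were called without it. With voom on the recovered reads, Ear1, Ear2, Ear6 and Alox15 were not called. The pseudocount limits how far genes near 0 in GMP-MoP, such as Alox15 and Ear6, can fall. For these the term cannot show a weaker LPS effect.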

How the results depend on the processing

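The comparisons of naive proNeu1, proNeu2, GMP-MoP, cMoP and MDP with naive GMP, and of naive GMP-MoP with naive proNeu1, kept their counts of members called under every alternative run but the stricter filter. There Alox15 has no value, and the count was 6 in each of these comparisons. With a pseudocount of 0.1 the count was 1 for proNeu2 against proNeu1, 3 for LPS GMP, 2 for LPS proNeu1 and 1 for the GMP-MoP interaction. It was 1 for proNeu2 against proNeu1 with median-of-ratios scaling. With only the compared groups it was 3 for LPS proNeu1 and 1 for the GMP-MoP interaction, which was 1 with voom too. The causes were not tested. Leaving out each library in turn, the counts ranged from 1 to 5 (proNeu2 against proNeu1), 2 to 6 (LPS GMP), 2 to 7 (LPS proNeu1), 0 to 1 (LPS GMP-MoP), 0 to 1 (proNeu2 interaction) and 1 to 5 (GMP-MoP interaction). Several uncalled changes turned direction on leaving out a library. For LPS GMP-MoP the ranges were -0.35 to 1.45 (Prg2), -0.24 to 0.45 (Epx), -0.29 to 0.66 (Ear1), -0.32 to 0.27 (Ear2), -0.29 to 0.46 (Ear6) and -0.16 to 0.17 (Alox15, also 0.0136 with a pseudocount of 0.1 and 0.11 with voom). For the proNeu1 interaction they were -0.36 to 0.48 (Prg2), -0.44 to 0.38 (Prg3), -0.84 to 0.0715 (Epx), -0.11 to 0.39 (Ear1), -0.12 to 0.50 (Ear2), -0.42 to 0.20 (Ear6) and -0.28 to 0.0361 (Alox15). For the proNeu2 interaction of Epx the range was -0.0015 to 0.42. In most comparisons, same-numbered libraries did not all match best by their deviations. In naive GMP-MoP against naive proNeu1 (correlations 0.186, 0.375 and 0.0973), all 3 libraries were closest to their own number. The same held for LPS proNeu2 against naive proNeu2 (0.0934, 0.116 and 0.0539), in both cases a hint from the data and not from the design. With the replicate block Prg2 was no longer called in LPS GMP (-1.29, adjusted p = 0.0532) or in the GMP-MoP interaction (2.07, adjusted p = 0.0502), and no other member's call changed. Counts over all genes moved by over 1.5 times mainly with the pseudocount, voom and the stricter filter; for LPS GMP 346 genes were lower, with a range of 123 to 575. Depth limits the lowest values: 9 member values in 4 libraries were at 0 reads, where 3 reads would be 0.0317 to 0.156 FPKM.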
